A study of Mus musculus with 59 samples.

Results

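The genes described here are the subunits and regulators of the proteasome. They were taken as every row of the expression table whose symbol begins with Psm, then a letter from a to g and a digit. The rule found 50 of the 24421 genes in the table. They comprised 19 core genes named Psma or Psmb, 21 cap genes named Psmc or Psmd, 5 activators named Psme, the inhibitor Psmf1 and 4 assembly chaperones named Psmg. The rule also caught Psmc3ip, which is a meiotic recombination factor and no proteasome subunit, so it is given apart. On RefSeq's GRCm38.p6 annotation 14 members overlap another gene, among them Psma3, Psma4, Psma6, Psmb5, Psmb7, Psmc5, Psmd10, Psmd13, Psme1 and Psme4, and their values may hold reads of that gene.

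The study made mouse embryos by somatic cell nuclear transfer (SCNT): an oocyte is stripped of its own nucleus, receives that of a body cell and is then activated. Cumulus cells, the follicle cells around the oocyte, are labelled as the donor cells. The oocytes came from superovulated C57BL/6n females aged 5 to 7 weeks, polar bodies were removed, and the labels give the strain as BDF1. Poly(A) RNA libraries covered late 2-cell embryos grown with trichostatin A (TSA), which blocks the enzymes that remove acetyl groups from histones, and untreated embryos, labelled WT, at the 1-cell, early 2-cell and late 2-cell stages. Collection was at 13 to 14 h after activation for the 1-cell stage, 20 to 21 h for the early 2-cell stage and 33 to 34 h for both late 2-cell groups. Each group had 5 libraries, but the table holds 1 value per gene and group, and how the libraries were combined is not given in the sources used here. The TSA dose, the number of embryos per library and the donor of each library are not given either.

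The proteasome is the protease that degrades proteins tagged with ubiquitin. Its barrel-shaped core stacks rings of alpha and beta subunits, and 3 kinds of beta subunit carry the cutting sites. A cap built of a base, with a ring of ATPases, and a lid recognises, unfolds and feeds in the substrate. Cells exposed to interferon replace the catalytic beta subunits by Psmb8, Psmb9 and Psmb10, which gives the immunoproteasome, and can add a ring activator made of Psme1 and Psme2 in place of a cap. Around fertilisation, proteasomes degrade stored oocyte proteins while the embryo begins its own transcription.

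The promoters of 5 members on which the results turn are shown first, as 300-base windows running from 250 bases before the start of the gene to 50 after it. They are RefSeq sequences on the mouse build GRCm38.p6. Psmb5 (chr14:54617946-54618245, minus strand) encodes a cutting subunit and had the largest difference between the early and late 2-cell stages among the members. Psmd12 (chr11:107479278-107479577, plus strand) is the lid subunit that was lowest in the early 2-cell embryo relative to the 1-cell embryo. Psmd11 (chr11:80428365-80428664, plus strand) is the lid subunit with the largest positive difference with TSA. Psmb8 (chr17:34197945-34198244, plus strand) and Psme1 (chr14:55578244-55578543, plus strand) stand for the inducible subunits. Capitals mark matches to the motifs counted at the end of the results: an antioxidant response element in Psmb5, that element and then an ETS motif in Psmd12, an ETS motif in Psmd11, a TATA box and then a gamma-activated site in Psmb8, and an interferon-stimulated response element in Psme1.
Psmb5: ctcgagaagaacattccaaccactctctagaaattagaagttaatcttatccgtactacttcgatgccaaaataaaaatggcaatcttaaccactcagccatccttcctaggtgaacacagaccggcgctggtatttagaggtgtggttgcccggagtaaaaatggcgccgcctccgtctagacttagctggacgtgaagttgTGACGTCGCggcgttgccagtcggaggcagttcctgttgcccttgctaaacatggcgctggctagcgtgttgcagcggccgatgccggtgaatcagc
Psmd12: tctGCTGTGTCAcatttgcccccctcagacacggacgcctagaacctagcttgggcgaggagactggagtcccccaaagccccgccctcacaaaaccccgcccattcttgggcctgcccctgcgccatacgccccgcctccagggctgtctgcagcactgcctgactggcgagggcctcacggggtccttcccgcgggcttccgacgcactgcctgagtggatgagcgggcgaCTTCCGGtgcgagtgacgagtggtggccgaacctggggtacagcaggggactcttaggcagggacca
Psmd11: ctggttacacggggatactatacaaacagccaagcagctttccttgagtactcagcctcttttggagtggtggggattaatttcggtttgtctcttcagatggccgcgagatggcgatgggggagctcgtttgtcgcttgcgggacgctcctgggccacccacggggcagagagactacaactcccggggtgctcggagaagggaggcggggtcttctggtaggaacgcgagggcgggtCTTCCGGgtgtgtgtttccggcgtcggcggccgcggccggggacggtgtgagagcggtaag
Psmb8: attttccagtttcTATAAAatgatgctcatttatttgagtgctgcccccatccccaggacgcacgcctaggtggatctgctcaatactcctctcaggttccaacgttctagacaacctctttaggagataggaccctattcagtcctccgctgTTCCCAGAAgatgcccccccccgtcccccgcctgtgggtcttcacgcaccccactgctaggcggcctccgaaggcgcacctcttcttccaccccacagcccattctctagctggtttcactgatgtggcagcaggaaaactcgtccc
Psme1: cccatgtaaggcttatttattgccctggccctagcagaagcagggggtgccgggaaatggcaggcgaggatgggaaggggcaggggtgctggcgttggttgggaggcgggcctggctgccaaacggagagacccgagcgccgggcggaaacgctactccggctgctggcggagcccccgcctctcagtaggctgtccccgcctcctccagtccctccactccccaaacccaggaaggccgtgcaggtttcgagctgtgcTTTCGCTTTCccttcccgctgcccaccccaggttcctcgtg

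The values are log2(FPKM + 1) as the authors deposited them, and levels are given here converted back to FPKM, a read count scaled by transcript length and library size. The read depth behind them is unknown. A difference is one of log2(FPKM + 1), and a size of at least 1 on that scale is called 2-fold; this understates the change of genes with low levels. With 1 value per group no difference has a replicate check or a test. A gene was compared where it reached 1 FPKM in a column of the comparison (for stages, in any of the 3 untreated columns), and 49 of the 50 members did. The exception was Psma8, a testis subunit, at 0.375 FPKM in the early 2-cell embryo and 0.437 FPKM with TSA. Because FPKM is scaled by library size, a change of one transcript and a change in the rest of the RNA cannot be told apart. The number of cells and the RNA per embryo cannot be read from these bulk values.

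Transcripts used as markers of other cells were present in the columns, and their sums differed between some of them. Whether these transcripts came from such cells or from the embryo was not tested. The summed level of 18 cumulus and granulosa markers was 29.0, 28.6 and 91.4 FPKM in the untreated 1-cell, early 2-cell and late 2-cell embryos. It was 39.9 FPKM with TSA, against 91.4 FPKM in untreated late 2-cell embryos. Of the 8 such markers measured, 3 were at least 2-fold lower with TSA and 0 higher, beside 4.08% and 2.51% of all genes. Another 3 lay above 0, Cyp19a1 (0.85), Amhr2 (0.57) and Ptgs2 (0.24). Of the 3 lower ones, Fshr was near the floor, at 0 FPKM with TSA and 1.64 FPKM untreated. Lgals1 had the lowest difference (-2.14), at 1.28 FPKM with TSA and 9.06 FPKM untreated. Anxa2 made up most of the sum, at 23.6 FPKM with TSA and 67.0 FPKM untreated. The granulosa genes Fshr, Inha and Lhcgr were listed at 0 with TSA, as were Inha, Inhba and Ptx3 in untreated late 2-cell embryos. Of 8 blood markers, summing to 0.495, 0.493 and 55.6 FPKM over the 3 stages and to 74.7 FPKM with TSA, Hbb-bs, Hbb-bt and Ptprc were listed at 0 in both late 2-cell columns. Of 12 oocyte and early embryo genes, 11, 10 and 12 reached 1 FPKM in the 1-cell, early 2-cell and late 2-cell columns. The part of these cell types in the proteasome values was not tested.

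In untreated embryos most constitutive subunits were lowest at the early 2-cell stage. Of the 31 core and cap subunits that every cell uses, 25 lay lower in the early 2-cell than in the 1-cell embryo, 10 of them by at least 2-fold, and 1 was at least 2-fold higher. Among all 13012 genes compared, 53.1% lay lower, 5.53% at least 2-fold lower and 2.89% at least 2-fold higher. The median difference was -0.68 over the 31 subunits and -0.03 over all genes. Under median-ratio scaling and under quantile normalization 9 of the 31 lay above 0, against 6 without rescaling. By the late 2-cell stage 22 of the 31 were at least 2-fold higher than at the early 2-cell stage and 0 were 2-fold lower, against 47.1% and 10.8% of all genes. The median difference there was 1.73 for the subunits and 0.89 for all genes, so a large part of the table was higher at that step too. Quantile normalization brought the medians at that step to 1.19 for the subunits and -0.15 for all genes. The level was lowest at the early 2-cell stage for 22 of the 31 subunits and for 36.9% of all genes.

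**Figure D1:**
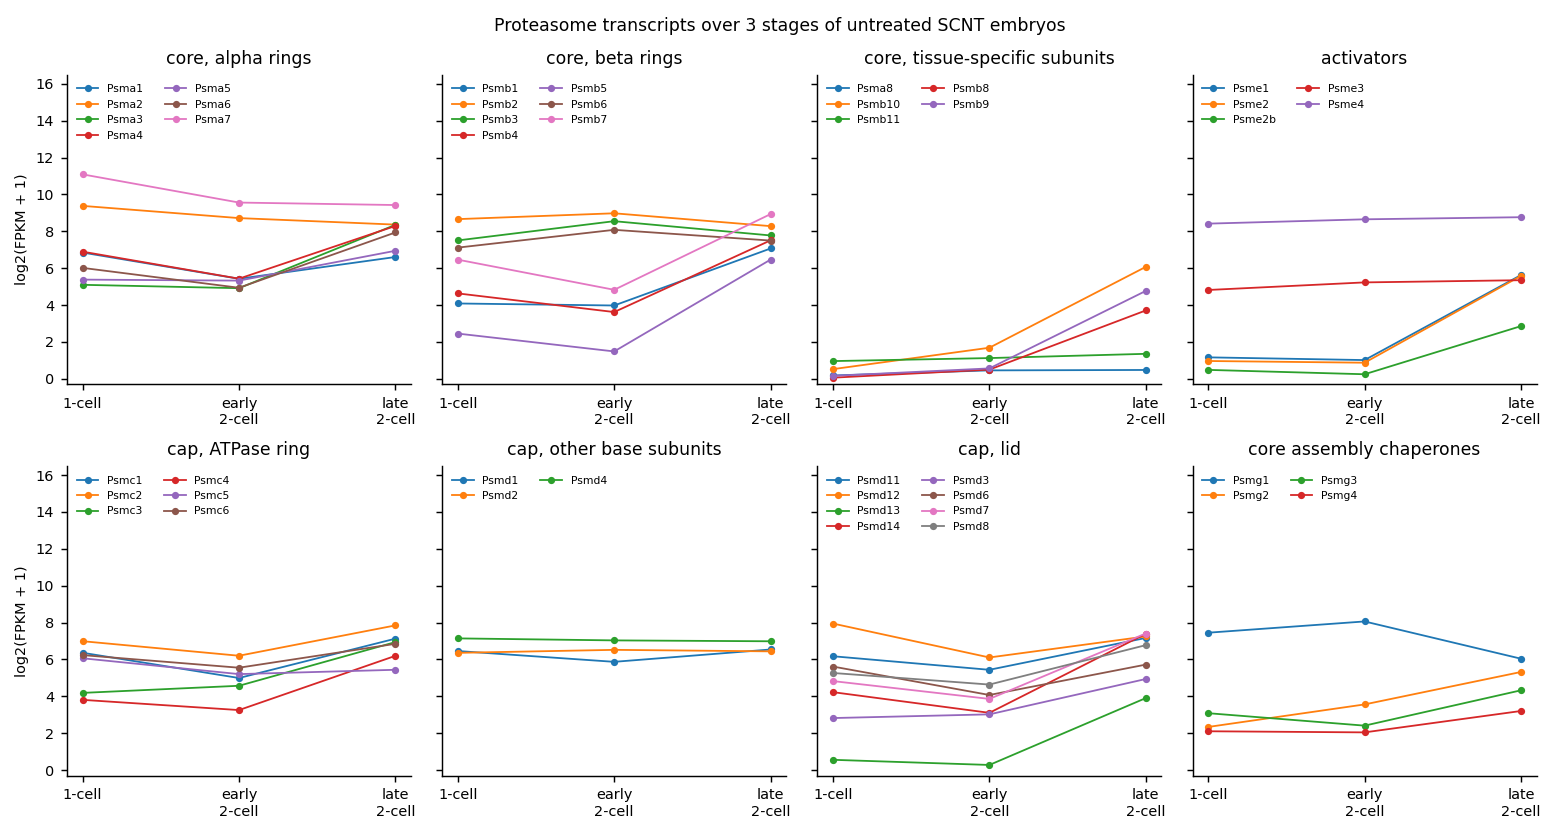
Level of each core, cap, activator and core chaperone gene, as log2(FPKM + 1), in the untreated 1-cell, early 2-cell and late 2-cell columns; each point is the authors' 1 value for the group and lines join the values of a gene. Many lines dip at the early 2-cell stage, while Psma2, Psma7, Psmb2, Psmb3 and Psmb6 run above the other core subunits there and Psmb8, Psmb9, Psmb10, Psme1 and Psme2 start near 0.

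The alpha subunits, which form the outer rings of the core and its gate, ran lower as a set at the early 2-cell stage. All 7 lay lower there than in the 1-cell embryo, with a median difference of -1.08, though Psma5 (-0.05) and Psma3 (-0.18) only slightly. Psma7 was the most abundant member in every column, at 2174, 753 and 686 FPKM over the 3 stages. Its early minus 1-cell difference was -1.53, and it stayed near that lower level at the late 2-cell stage. Psma2 likewise declined, at 665, 419.5 and 328 FPKM. The other 5 alpha subunits were each at least 2-fold higher at the late than at the early 2-cell stage. Psma3 stood at 33.3, 29.2 and 325 FPKM (late minus early 3.43). Psma4 stood at 118, 42.1 and 312 FPKM, and Psma6 at 63.7, 29.7 and 244 FPKM. Psma1 (114, 42.0 and 96.4 FPKM) returned only near its 1-cell level, and Psma5 (40.7, 39.1 and 122 FPKM) barely dipped. The late minus early difference of Psma1, 1.18, came to 0.57 under median-ratio scaling and 0.58 under quantile normalization, under 2-fold.

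The beta subunits split into 2 sets. Psmb2, Psmb3 and Psmb6 were high early: Psmb2 stood at 404, 503 and 309.9 FPKM, Psmb3 at 181, 373 and 218 FPKM, and Psmb6, which carries the caspase-like site, at 138, 269.6 and 179.7 FPKM. Each of these 3 peaked at the early 2-cell stage, and Psmb3 was the constitutive subunit at least 2-fold higher there than in the 1-cell embryo (1.04, and 0.98 under quantile normalization). The other 4 were lowest at that stage and far higher at the late 2-cell stage. Psmb5, which carries the chymotrypsin-like site, stood at 4.48, 1.80 and 87.4 FPKM, and its late minus early difference of 4.98 was the largest of the 49 members compared. Psmb7, which carries the trypsin-like site, stood at 87.2, 27.4 and 488 FPKM. The structural subunits Psmb1 and Psmb4 stood at 16.0, 14.7 and 133 FPKM and at 23.8, 11.3 and 181 FPKM. The 3 catalytic transcripts, which are used in equal number in the core, thus ran from 1.80 FPKM for Psmb5 to 269.6 FPKM for Psmb6 in the early 2-cell embryo. Median-ratio scaling put Psmb2, Psmb3 and Psmb6 at -1.31, -1.39 and -1.20 in the late minus early comparison, each past 2-fold. The beta median for early minus 1-cell, -0.11, turned to 0.03 under that scaling and 0.07 under quantile normalization.

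The levels of the core subunits drew together at the late 2-cell stage. Among the 14 constitutive core genes the highest level was 485 times the lowest in the 1-cell embryo, 418 times in the early 2-cell embryo and 7.85 times in the late 2-cell embryo. The SD of their log2(FPKM + 1) was 2.23, 2.40 and 0.86. The first 2 core ranges rest on Psmb5, at 4.48 and 1.80 FPKM. The next lowest core genes were Psmb1 in the 1-cell embryo (16.0 FPKM) and Psmb4 in the early 2-cell embryo (11.3 FPKM). For the 17 cap subunits the highest was 518, 605 and 16.4 times the lowest, with SDs of 1.81, 1.66 and 1.01. The first 2 cap ranges rest on Psmd13, at 0.475 and 0.215 FPKM, and the next lowest was Psmd3, at 6.08 and 7.14 FPKM. The same SD over the 8332 genes that reached 1 FPKM at all 3 stages was 2.01, 1.99 and 1.90. Psmd13 would not enter that set, so the cap SDs and these are not fully alike. With TSA the core range was 7.44-fold, against 7.85-fold untreated, and the cap range 20.7-fold, against 16.4-fold untreated. The medians over the core were 101, 40.6 and 231 FPKM at the 3 stages, and over the cap 66.0, 30.9 and 114 FPKM. Together the 31 subunits took 1.03%, 0.623% and 1.06% of the summed FPKM of the column.

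**Figure D2:**
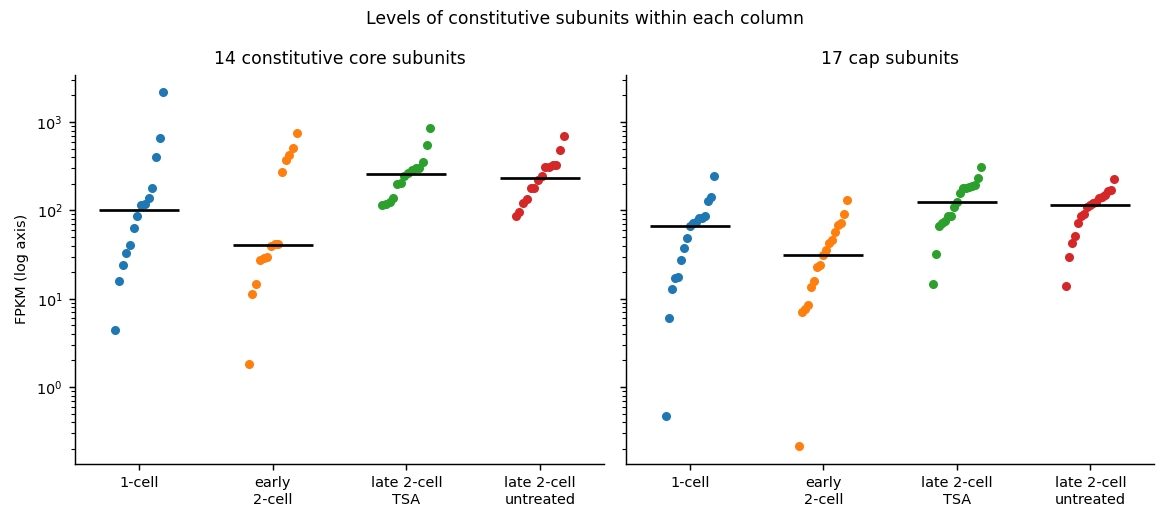
Levels in FPKM on a log axis of the 14 constitutive core subunits (left) and the 17 cap subunits (right) in each of the 4 columns; points are genes in order of level and the bar is the median. Core levels span 485-fold and 418-fold in the 1-cell and early 2-cell columns, and 7.44-fold and 7.85-fold in the TSA-treated and untreated late 2-cell columns. The lowest core point in the 1-cell and early 2-cell columns is Psmb5.

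Most of the 8 lid subunits found by the naming rule showed the dip. Of these 8 subunits, which include the enzyme that removes ubiquitin from substrates, 7 lay lower in the early 2-cell than in the 1-cell embryo, 3 of them at least 2-fold. All 8 were at least 2-fold higher at the late than at the early 2-cell stage, against 47.1% of all genes, with a median difference of 2.03. Quantile normalization left 5 of the 8 past 2-fold, with Psmd12 at 0.69, Psmd3 at 0.96 and Psmd6 at 0.86, and median-ratio scaling put Psmd12 at 0.53. Psmd12 stood at 246, 68.0 and 151 FPKM, with the most negative early minus 1-cell difference of the members (-1.84). Psmd14, the deubiquitinating enzyme itself, stood at 17.7, 7.62 and 167 FPKM. Its early minus 1-cell difference of -1.12 came to -0.85 under quantile normalization or with a pseudocount of 5, and its late minus early difference of 4.29 was the largest of the cap. Its lid partner in the same enzyme module, Psmd7, stood at 27.4, 13.5 and 169 FPKM. Psmd13 was the scarcest of the 17 cap subunits throughout, at 0.475, 0.215 and 14.0 FPKM. Among the untreated stages it reached 1 FPKM at the late 2-cell stage alone. The filter thus kept Psmd13 only through the column where it was high, and its dip lies under that floor. The remaining lid members were Psmd6 (48.1, 15.9 and 51.8 FPKM), Psmd8 (37.5, 23.9 and 109 FPKM), Psmd11 (71.3, 42.4 and 143 FPKM) and Psmd3 (6.08, 7.14 and 29.7 FPKM). Psmd3 was the one of these 8 that did not dip. The lid subunit Shfm1, outside the naming rule, did not dip either, at 15.0, 22.2 and 18.2 FPKM.

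The ATPases that drive unfolding mostly dipped too. Their median was -0.74 for early minus 1-cell and 1.89 for late minus early, beside -0.85 and 2.03 for the lid. Of the 6 ATPases, 5 lay lower in the early 2-cell than in the 1-cell embryo, Psmc1 by at least 2-fold (-1.37). At the late 2-cell stage 5 were at least 2-fold higher than at the early 2-cell stage, against 47.1% of all genes. Of these, Psmc6 (1.29) came to 0.69 under median-ratio scaling and 0.73 under quantile normalization. Psmc1 stood at 81.4, 30.9 and 139 FPKM, and Psmc2 at 126, 72.7 and 229 FPKM. Psmc4 (13.0, 8.56 and 72.4 FPKM) and Psmc3 (17.2, 22.8 and 122 FPKM) were the least abundant of the ring at the 1-cell and early 2-cell stages. Psmc5 was the exception at the late 2-cell stage, at 66.0, 35.9 and 42.5 FPKM, and Psmc6 stood at 74.4, 46.0 and 114 FPKM. Among the core and cap classes of the members, the 3 base subunits without ATPase activity varied least. Adrm1, another base subunit without ATPase activity, lies outside the naming rule and varied strongly (late minus early 3.32). The scaffold Psmd1 stood at 87.0, 57.6 and 92.2 FPKM, the scaffold Psmd2 at 81.2, 90.9 and 85.9 FPKM, and the ubiquitin receptor Psmd4 at 140.4, 130.2 and 126 FPKM. None of these 3 was 2-fold apart in any of the 4 comparisons. Of all genes 8.42% were so between early 2-cell and 1-cell, 57.8% between late and early 2-cell and 58.8% between late 2-cell and 1-cell embryos. Their median late minus 1-cell difference of 0.08 turned to -0.39 under median-ratio scaling and -0.31 under quantile normalization, and their early minus 1-cell median of -0.11 turned to 0.03 under the first of these.

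Set against the 1-cell embryo, the late 2-cell embryo had 15 of the 31 constitutive subunits at least 2-fold higher and 2 lower, Psma2 (-1.02, and -0.81 under quantile normalization) and Psma7 (-1.66). Of all genes 45.2% were at least 2-fold higher and 13.6% lower. Over all 49 compared members, 26 were 2-fold higher and 5 lower, and the 3 other lower ones were Psmd10, Psmf1 and Psmg1. The comparisons of late 2-cell with early 2-cell and with 1-cell embryos share the late 2-cell column.

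The assembly factors did not move as a set. The dedicated chaperones of the core act as a pair of Psmg1 with Psmg2, which builds the alpha ring, and a pair of Psmg3 with Psmg4. Psmg1 stood at 174, 266 and 64.9 FPKM, and it was at least 2-fold lower at the late than at the early 2-cell stage (-2.02). Its partner Psmg2 ran the other way, at 4.07, 10.8 and 39.0 FPKM (1.76). The other pair was less abundant: Psmg3 stood at 7.50, 4.33 and 19.1 FPKM and Psmg4 at 3.31, 3.13 and 8.24 FPKM. Of the chaperones of the ATPase ring, Psmd10 stood at 84.7, 57.0 and 14.4 FPKM and Psmd9 at 102, 126 and 62.7 FPKM, while Psmd5 stood at 50.6, 38.7 and 332 FPKM (late minus early 3.07). Psmd10 and Psmg1 were the 2 of the 49 members at least 2-fold lower at the late than at the early 2-cell stage. The inhibitor Psmf1, which binds the core, declined over the 3 stages at 94.3, 73.2 and 46.5 FPKM. Pomp, which helps to assemble the core, was near level at 45.1, 43.3 and 41.5 FPKM. Psmc3ip, the recombination factor, stood at 9.83, 5.03 and 80.8 FPKM.

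The inducible subunits were near absent before the late 2-cell stage. The summed level of Psmb8, Psmb9, Psmb10, Psme1 and Psme2 was 2.80 FPKM in 1-cell, 4.98 FPKM in early 2-cell and 199.9 FPKM in late 2-cell untreated embryos. All 5 were at least 2-fold higher at the late than at the early 2-cell stage, against 47.1% of all genes. Their median difference was 4.38, beside 0.89 for all genes. Among the untreated stages, Psmb8, Psmb9 and Psme2 reached 1 FPKM at the late 2-cell stage alone. The filter thus kept these genes only through the column where they were high. Psmb10 stood at 0.441, 2.22 and 66.2 FPKM, and it was at least 2-fold higher in the early 2-cell than in the 1-cell embryo (1.16, and 0.41 with a pseudocount of 5). Psmb9 stood at 0.119, 0.480 and 26.2 FPKM and Psmb8 at 0.0448, 0.416 and 12.1 FPKM. Their ring activator followed, with Psme1 at 1.24, 1.03 and 48.4 FPKM and Psme2 at 0.956, 0.834 and 46.9 FPKM. Psme2b, a near copy of Psme2 with which reads may be shared, stood at 0.400, 0.189 and 6.25 FPKM. Psmb9 (chr17:34182030-34187330) and Psmb8 (chr17:34198195-34201454) lie beside the peptide transporter genes Tap1 and Tap2 in the major histocompatibility complex. Psmb10 (chr8:105935728-105938392) lies elsewhere, and Psme1 (chr14:55578494-55581527) and Psme2 (chr14:55587440-55591101) are close neighbours; these positions are on GRCm38.p6. Psmb11, the thymus subunit, stayed at 0.949, 1.18 and 1.56 FPKM.

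The constitutive counterparts give the scale of these levels. The level of Psmb8 was 1.00%, 23.1% and 13.8% of that of Psmb5 over the 3 stages, where the early 2-cell share rests on a Psmb5 level of 1.80 FPKM. Psmb9 was at 0.0863%, 0.178% and 14.6% of Psmb6, and Psmb10 at 0.506%, 8.10% and 13.6% of Psmb7. In the late 2-cell embryo each immunoproteasome transcript thus stood at 13.6% to 14.6% of its counterpart. The activators that are not inducible by interferon varied little: Psme3, which forms a nuclear ring of its own, stood at 27.2, 36.5 and 39.8 FPKM, and Psme4, which acts in the nucleus and in spermatogenesis, at 341, 401 and 434 FPKM. Psme1 was at 4.57%, 2.81% and 122% of Psme3.

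**Figure D3:**
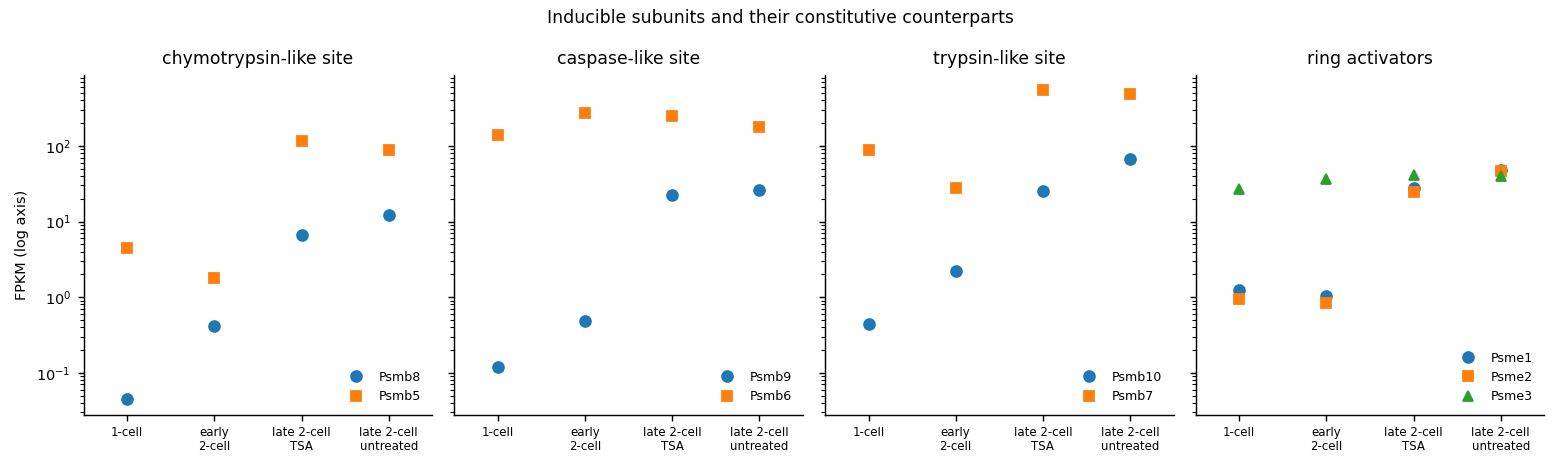
Levels in FPKM on a log axis of the inducible subunits (circles, and squares for Psme2) beside the constitutive counterpart with the same cutting site, or Psme3, in each column. The inducible transcripts lie lowest in the 1-cell and early 2-cell columns, and in the late 2-cell columns each is lower with TSA than without.

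Genes of antigen presentation, the process that immunoproteasome peptides feed, were scarce apart from B2m and, in 3 of the 4 columns, Irf1. B2m, the light chain of class I molecules, stood at 10.3, 14.3 and 207 FPKM over the 3 untreated stages. Of 10 such genes 7 were at least 2-fold higher at the late than at the early 2-cell stage, against 47.1% of all genes. Of these, Tapbp, H2-D1, Nlrc5 and Erap1 reached 1 FPKM at the late 2-cell stage alone. The filter thus kept them only through the column where they were high. Nlrc5 only just passed, at 1.01 FPKM and a difference of 1.01. Tap1 reached 1.09 FPKM and Tap2 1.74 FPKM in untreated late 2-cell embryos.

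With TSA the constitutive subunits differed little from untreated late 2-cell embryos, and mostly upward. None of the 31 was 2-fold apart, as 6.59% of all genes were, and 25 of the 31 lay above 0, where 43.3% of all 12756 genes did. Their median difference was 0.18, against -0.08 for all genes. Over all 49 compared members 0 were at least 2-fold higher and 2 lower, beside 2.51% and 4.08% of all genes. All 8 lid subunits among the members lay above 0, while Shfm1, outside the naming rule, lay at -0.39. Psmd11 was at 229.9 FPKM with TSA and 143 FPKM untreated (0.68), Psmd6 at 71.9 and 51.8 FPKM (0.47), and the ATPase Psmc5 at 67.0 and 42.5 FPKM (0.64). No constitutive core subunit differed by as much as these. Psmb6 was at 246 FPKM with TSA and 179.7 FPKM untreated (0.45), and Psmb5 at 115 and 87.4 FPKM (0.39). Psma7 was at 856 FPKM with TSA and 686 FPKM untreated (0.32). The 6 constitutive subunits below 0 were Psma2, Psma3, Psmb2, Psmb3, Psmc6 and Psmd1. Psmc6 had the lowest difference of these, at 86.4 FPKM with TSA and 114 FPKM untreated (-0.40). The 31 subunits took 1.24% of the summed FPKM with TSA and 1.06% untreated.

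**Figure D4:**
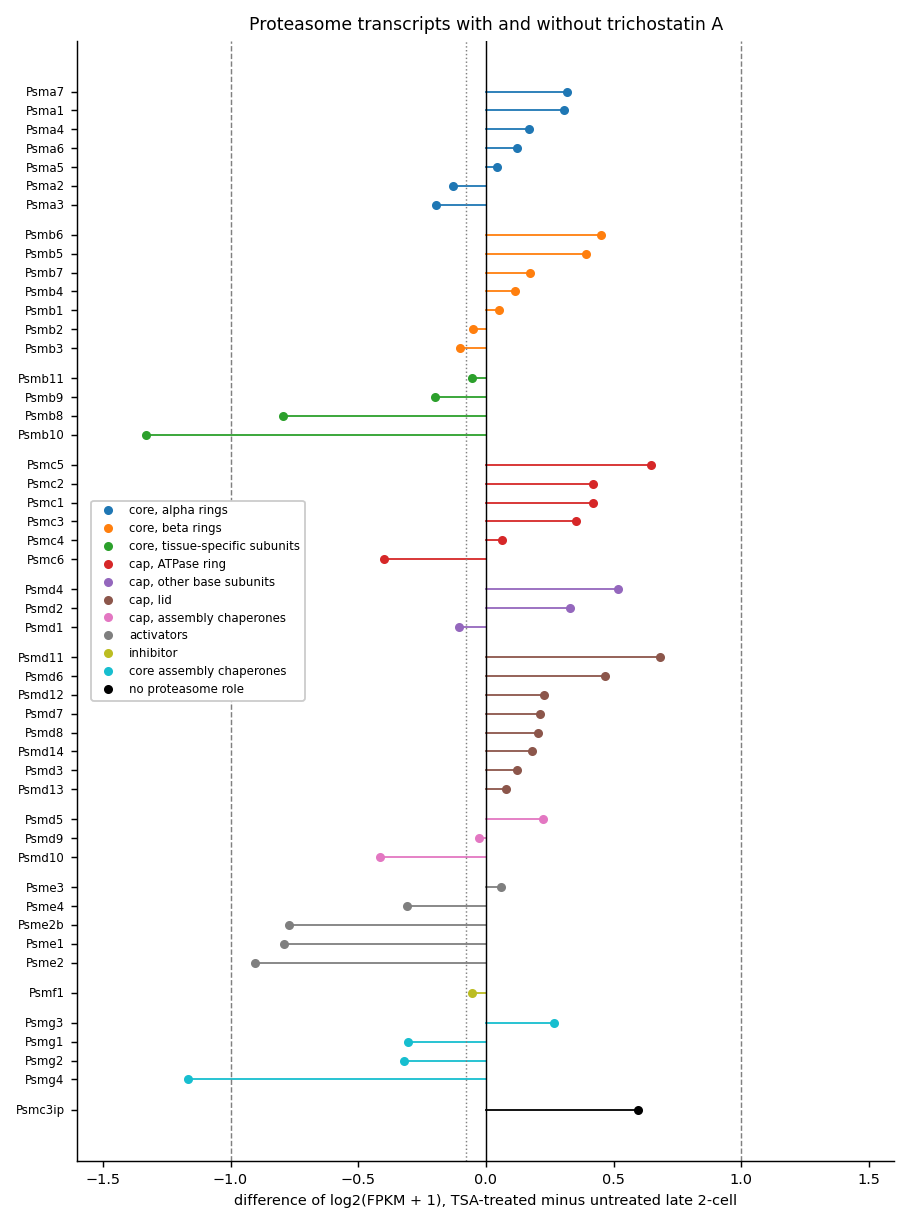
Difference of log2(FPKM + 1), TSA-treated minus untreated late 2-cell embryos, for each of the 49 members compared, ordered within class; dashed lines mark 2-fold and the dotted line the median of all genes (-0.08). Constitutive core and cap genes lie mostly right of 0, the inducible core subunits and Psme1 and Psme2 left of it, and Psmb10 and Psmg4 pass the left dashed line.

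The inducible subunits went the other way. All 5 were lower with TSA than without, as were 56.7% of all genes, with a median difference of -0.79, and their summed level was 107 FPKM with TSA and 199.9 FPKM untreated. Psmb10 was at least 2-fold lower, at 25.7 FPKM with TSA and 66.2 FPKM untreated (-1.33). Psmb8 was at 6.54 FPKM with TSA and 12.1 FPKM untreated (-0.79), and Psmb9 at 22.7 and 26.2 FPKM (-0.20). Psme1 was at 27.6 FPKM with TSA and 48.4 FPKM untreated (-0.79), and Psme2 at 24.6 and 46.9 FPKM (-0.90). As a share of its constitutive counterpart, Psmb10 was at 4.68% with TSA and 13.6% untreated, Psmb8 at 5.69% and 13.8%, and Psmb9 at 9.25% and 14.6%. Of the 10 antigen presentation genes 6 lay below 0 and 4 above, H2-K1 (0.44), H2-D1 (0.33), Nlrc5 (0.28) and Erap1 (0.19), with a median of -0.21. B2m was at 115 FPKM with TSA and 207 FPKM untreated, and Tap2, at 0.168 and 1.74 FPKM, was the antigen presentation gene past 2-fold (-1.23). The summed cumulus and granulosa markers were also lower with TSA, at 39.9 FPKM against 91.4 FPKM, while the summed blood markers were higher, at 74.7 FPKM against 55.6 FPKM. Of the 5 blood markers compared, Cd74 (-1.56) and Cd52 (-1.14) were at least 2-fold lower with TSA and Lyz2 (1.79) was higher. Hba-a1, at 49.96 FPKM with TSA and 32.9 FPKM untreated, made up most of that sum. The part of these cell types in the differences was not tested.

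Among the other regulators, Psmg4 was at 3.12 FPKM with TSA and 8.24 FPKM untreated (-1.16), and a pseudocount of 5 brought that difference to -0.70. Its partner Psmg3 was at 23.2 FPKM with TSA and 19.1 FPKM untreated. Psmg1 was at 52.4 and 64.9 FPKM with and without TSA, and Psmg2 at 31.1 and 39.0 FPKM. Psme4 was at 350.1 FPKM with TSA and 434 FPKM untreated (-0.31), and Psme3 at 41.4 and 39.8 FPKM. Psmc3ip was at 123 FPKM with TSA and 80.8 FPKM untreated (0.60).

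Proteasome genes outside the naming rule varied without a shared direction. Of 12 in the table, 0 were 2-fold apart with TSA, and 4 were at least 2-fold higher and 1 lower at the late than at the early 2-cell stage. Of all genes 6.59% were 2-fold apart with TSA, and 47.1% were higher and 10.8% lower at that step. Adrm1, a ubiquitin receptor of the cap, stood at 16.0, 8.21 and 90.9 FPKM over the untreated stages (late minus early 3.32). Akirin2, which carries proteasomes into the nucleus, stood at 153, 157 and 29.9 FPKM (-2.35). Usp14, a deubiquitinating enzyme that binds the cap, stood at 26.9, 10.5 and 30.0 FPKM, and was the gene of this list at least 2-fold lower in the early 2-cell than in the 1-cell embryo (-1.28).

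Of the 10 regulators of proteasome transcription compared, 7 were at least 2-fold higher and 1 lower at the late than at the early 2-cell stage, and 1 was at least 2-fold higher with TSA. Of all genes 47.1% were higher and 10.8% lower at that step, and 2.51% were higher with TSA. Nfe2l1, the main factor that raises proteasome genes when proteasomes are inhibited, stood at 22.2, 15.1 and 34.5 FPKM over the stages, and at 26.4 FPKM with TSA. Ngly1, which processes that factor, declined at 52.1, 37.0 and 13.2 FPKM. Mafk, its small DNA-binding partner, was at 41.1 FPKM with TSA and 18.9 FPKM untreated (1.08), and was the one 2-fold apart with TSA. Of the 6 genes that make or activate ubiquitin, 3 were at least 2-fold higher and 1 lower at the late than at the early 2-cell stage, and 0 were 2-fold apart with TSA, beside the same 47.1%, 10.8% and 6.59% of all genes. The stress gene Ubb stood at 988, 1350 and 1321 FPKM over the stages. The ribosomal fusion gene Rps27a stood at 10.5, 35.6 and 366 FPKM. Uba1, the main ubiquitin-activating enzyme, stood at 49.2, 73.2 and 33.4 FPKM, and was at least 2-fold lower at the late than at the early 2-cell stage (-1.11). Of the 8 genes compared for carrying and handling ubiquitinated substrates, 3 were at least 2-fold higher and 1 lower between those stages, again beside 47.1% and 10.8% of all genes. Vcp, the unfolding ATPase, stood at 34.9, 12.5 and 67.2 FPKM (early minus 1-cell -1.42). Ubqln1, a shuttle to the proteasome, stood at 171, 143 and 50.2 FPKM (late minus early -1.50).

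Promoter windows were found for 42 of the 50 members, and 6 motifs were searched on both strands. The ETS motif CCGGAAG was in 9 of 14 cap promoters (64.3%), in 0 of 11 constitutive core promoters and in 9.12% of all 27025 windows of the same length. The 9 were Psmc1, Psmc2, Psmc6, Psmd2, Psmd4, Psmd6, Psmd11, Psmd12 and Psmd13. Psmc3ip, Psme3, Psme4, Psmg1 and Psmg3 held it too, which makes 14 of the 42 members (33.3%), beside 11.7% of the windows of genes in the expression table. In Psmd12 the match ends 11 bases before the start and in Psmd11 5 bases before it. The CCAAT box (CCAAT) was in 54.5% of core and 28.6% of cap promoters, against 37.9% of all. The short antioxidant response element TGACNNNGC, which Nfe2l1 and related factors bind, was in 4 of the 25 constitutive promoters (16.0%), those of Psmb5, Psmb6, Psmc6 and Psmd12, and in 12.5% of all. In Psmb5 it lies at 47 to 39 bases before the start. The TATA box TATAAA was in 3 of the 25 constitutive promoters and in 14.2% of all.

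Of the 5 inducible promoters, 1 held the interferon-stimulated response element, searched as GAAA, any 2 bases and GAAA: that of Psme1, at bases 10 to 19 after the start, and 3.49% of all windows did. Over all 42 member windows 5 held it (11.9%), the others being Psmb3, Psmd4, Psmd9 and Psmg4. The gamma-activated site TTCNNNGAA was likewise in 1 of the 5, that of Psmb8 at 97 to 89 bases before the start, and in 8.47% of all windows. Psmd2 and Psmg1 held it too, which makes 3 of the 42 (7.14%). These last 2 motifs were chosen after the levels had been seen. No matches of different motifs overlapped in the member windows, and a match is a run of letters and not a measured site. The median GC content was 60.5% for cap, 54.7% for core and 52.7% for all promoters.

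**Figure D5:**
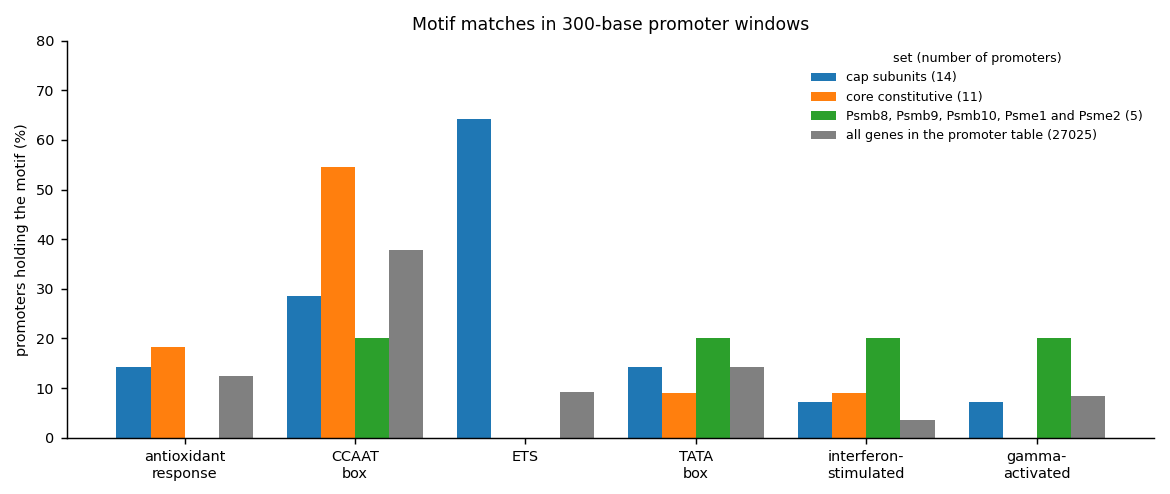
Share of promoter windows (%) that hold each of the 6 motifs on either strand, for the 14 cap, 11 constitutive core and 5 inducible promoters and for all 27025 windows. The ETS bar of the cap promoters stands at 64.3%, with none of the core promoters and 9.12% of all windows holding that motif.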

How the data were processed

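Only the RNA table was used, of 24 RNA and 35 chromatin libraries in the series. Its values are log2(FPKM + 1) as the authors deposited them, named so in the file headers, with 1 column per group. The submitters' processing notes name the build mm10 and HISAT2 2.1.0, StringTie 1.3.4, SAMtools 1.7 and Cufflinks among the tools, without roles; the annotation is not given in the sources used here. Counts behind the deposited values are not known, so no interval could be given. The table's 13 h column was taken as the 1-cell group from the collection times in the labels. Another 2 columns of values match no RNA library here and were not used, and 4 Dux-injected libraries were not analysed here.

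Differences of log2(FPKM + 1) were computed with Python 3.11.15 and pandas 2.3.3, and the script was tested on simulated data. All members could be named, and of other lists those past 2-fold and the highest and lowest. The members, lists and motifs were chosen with earlier results of these data known. Of the members, 14 overlap another RefSeq gene, and with no strand stated their reads may be shared. Alternatives were pseudocounts of 0.1 and 5, no filter or one at 5 FPKM, and 3 rescalings: median-ratio, quantile and an equal sum per column. Values of some genes of the other lists are not reported here.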

Additional observations from a re-analysis of the deposited data

How the results depend on the processing

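With 1 value per gene and group, leaving out a library could not be run. No paired analysis was possible because the columns carry no replicate numbers. Of 1368 values of single members under the alternatives, 1312 kept their side of 2-fold, 34 fell under it, 22 passed it and 0 changed sign past it. With TSA, a pseudocount of 5 left 1 member 2-fold lower (2 as reported), and median-ratio scaling gave medians of 0.33 for the constitutive subunits (0.18) and 0.22 for all members (0.08). For early 2-cell against 1-cell, 5 members were higher with a pseudocount of 0.1 and 1 with 5 (3 as reported). The median over members was -0.57 with a pseudocount of 0.1 and -0.24 under median-ratio scaling (-0.36). The constitutive count higher was 2 under median-ratio scaling and 0 under quantile normalization (1). The inducible median there (0.40) was 1.41 with a pseudocount of 0.1, 0.098 with 5, 0.62 under quantile normalization and 0.64 with an equal sum per column. For late against early 2-cell, median-ratio scaling left 7 members and 3 constitutive subunits lower (2 and 0) and a constitutive median of 1.12 (1.73); quantile normalization left 4 members lower and a median over members of 1.03 (1.76). For late 2-cell against 1-cell, median-ratio scaling gave 8 members and 4 constitutive subunits lower (5 and 2), a constitutive median of 0.52 (0.99) and a median over members of 0.80 (1.24), and quantile normalization 0.70. The cause was not tested. Of genes at least 2-fold apart, the share that was higher was 38.1% with TSA, and 58.2% and 52.7% under median-ratio and quantile scaling; 34.3%, 48.9% and 47.7% for early 2-cell against 1-cell; 81.4%, 65.9% and 49.0% for late against early; and 76.8%, 65.0% and 47.4% for late 2-cell against 1-cell. Median-ratio scaling moved the median of all genes by 0.14 with TSA, -0.51 for late against early and -0.42 for late against 1-cell, and quantile normalization by -1.04 and -0.97 in the last 2.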
